A study of Culter alburnus with 9 samples.

Results

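Autophagy is the route by which a cell wraps part of its own contents in a double membrane and delivers it to the lysosome for breakdown. The genes described here encode the machinery of that route and were picked out by a rule on gene names. A locus of the deposited table was taken when the Swiss-Prot gene name in its annotation belonged to the ATG, ULK, WIPI or WDR45, GABARAP, MAP1LC3, BECN, PIK3C3, PIK3R4, RB1CC1, AMBRA1, UVRAG, VMP1, TECPR, EPG5, SQSTM1, NBR1, OPTN, CALCOCO, BNIP3, TFEB or TFE3 families. This gave 64 of the 29791 loci. The rule used no expression value, but the members were chosen with earlier results of these data known.

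The fish were F1 juveniles of Culter alburnus, a cyprinid raised for food, aged 2 months and kept under 1 set of rearing conditions with no treatment. Wild-type fish (Ctrl), runx2b heterozygous mutants (He) and runx2b homozygous mutants (Ho) were compared, with 3 fish in each group and 1 library per fish. The founders had been edited with CRISPR/Cas9, and founders with the same kind of mutation were paired to give the F1. The 3 fish of a group had been picked for similar body size and a typical intermuscular bone phenotype, which was normal in Ctrl, reduced in He and absent in Ho. Poly(A) RNA came from trunk muscle with its myosepta, a tissue enriched for the bone-forming sheets but not purified. In these bulk samples fewer cells of a type and less RNA per cell cannot be told apart.

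In the textbook order, the ULK kinase complex starts the process, a lipid kinase complex built around beclin 1 marks the membrane, and ATG9, ATG2 and WIPI proteins let the membrane grow. A pair of ubiquitin-like conjugation systems then attaches ATG8 proteins (the LC3 and GABARAP families) to that membrane, receptors such as p62 bring the cargo, and tethers join the closed vesicle to the lysosome. In skeletal muscle this route clears damaged mitochondria and proteins, is under the control of the transcription factors TFEB and TFE3, and both too much and too little of it are known to harm the fibre. Much of its control acts on proteins rather than on transcripts, and transcript levels do not measure its flux.

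Library totals ran from 15869084 to 21009438 counts, and 14755 loci passed the filter on low counts. The runx2b transcript, which the study edited, was too rare to check the labels, with 0 to 27 counts in the Ctrl fish, 0 to 8 in the He fish and 2 to 11 in the Ho fish. Fast muscle markers dominated every library, with 23 of 26 listed loci tested and a summed level of 178512 to 326469 CPM (counts relative to a library size corrected by TMM factors, unless stated otherwise) in Ctrl, 231545 to 399663 in He and 213240 to 307654 in Ho. One titin locus of that list stood at 0 in all fish. Markers of tendon and myoseptum, 20 of 22 tested, summed to 3665 to 9184 CPM in Ctrl, 2601 to 13144 in He and 3184 to 5702 in Ho. Skin markers (44 of 74 tested, 11 loci at 0 throughout, among them Cdh1 and several Cldn4 copies) summed to 329 to 1615 CPM in Ctrl, 215 to 341 in He and 404 to 771 in Ho. Their median log2 fold change in He against Ctrl was -2.45, with 30 lower at an unadjusted edgeR p under 0.05 (all loci, 10.4%). At an adjusted p under 0.05, DESeq2 called 19, all lower in He (all loci, 1.82%), and edgeR 0. The smallest adjusted p were those of COL17A1, ANO1, esrp1 and EVPL, named for these calls. In Ho against Ctrl DESeq2 called 0. Of 9 vessel markers it called 1, kdr, lower in He. Its CPM was 9.60, 10.3 and 6.24 in Ctrl, 3.27, 4.67 and 3.76 in He fish and 5.10, 3.39 and 3.69 in Ho. The vessel markers together summed to 77.0 to 88.6 CPM in Ctrl, 70.6 to 94.3 in He and 70.6 to 87.1 in Ho. Their median log2 fold change was -0.13 in He and -0.37 in Ho against Ctrl. The part of these markers in the values below was not tested.

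Of the 64 autophagy loci, 61 passed the filter and were tested. The 3 that did not were a second MAP1LC3C locus (ABG768_004062), with 1 count in Ctrl 1 and 0 in the other fish, a short second ATG16L1 locus (ABG768_002574), with 0 to 3 counts, and ATG10 (ABG768_002978), the enzyme that joins ATG12 to ATG5, with 2 to 7 counts. These 3 are named because they failed the filter. All 64 loci lay on the assembled chromosomes, spread over 20 of them, and carried 49 gene names, 13 of which belonged to more than 1 locus. The closest neighbours were a pair of ambra1a loci on chromosome 7, 43.1 kb apart with no locus between them, and UVRAG and atg101 on chromosome 10, 84.8 kb apart with 5 loci between them.

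The autophagy loci were transcribed at low to moderate levels. In deposited TPM (transcript abundance as a share of the library, which allows for transcript length) their mean over the 9 fish had a median of 2.88 and ran from 0.192 for the TECPR1 copy ABG768_019941 to 47.5 for the GABARAP copy ABG768_022896. Only 10 of the 61 stood above 10 TPM and 14 were below 1 TPM. The median over all loci tested was 2.07 TPM. The ATG8 proteins made up the largest part. Their 7 tested loci summed to a mean of 195 TPM, of 405 TPM for all 61 loci. The 12 cargo receptors followed with 107 TPM, the 10 conjugation enzymes with 27.9, the 11 loci of membrane supply with 26.9, the 7 of the initiation complex with 20.4 and the 8 of the lipid kinase complex with 17.4. The 4 tethering loci held 6.72 TPM and TFEB and TFE3 4.51. The ATG8 proteins and the cargo receptors were thus the most abundant roles as transcripts.

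**Figure D1:**
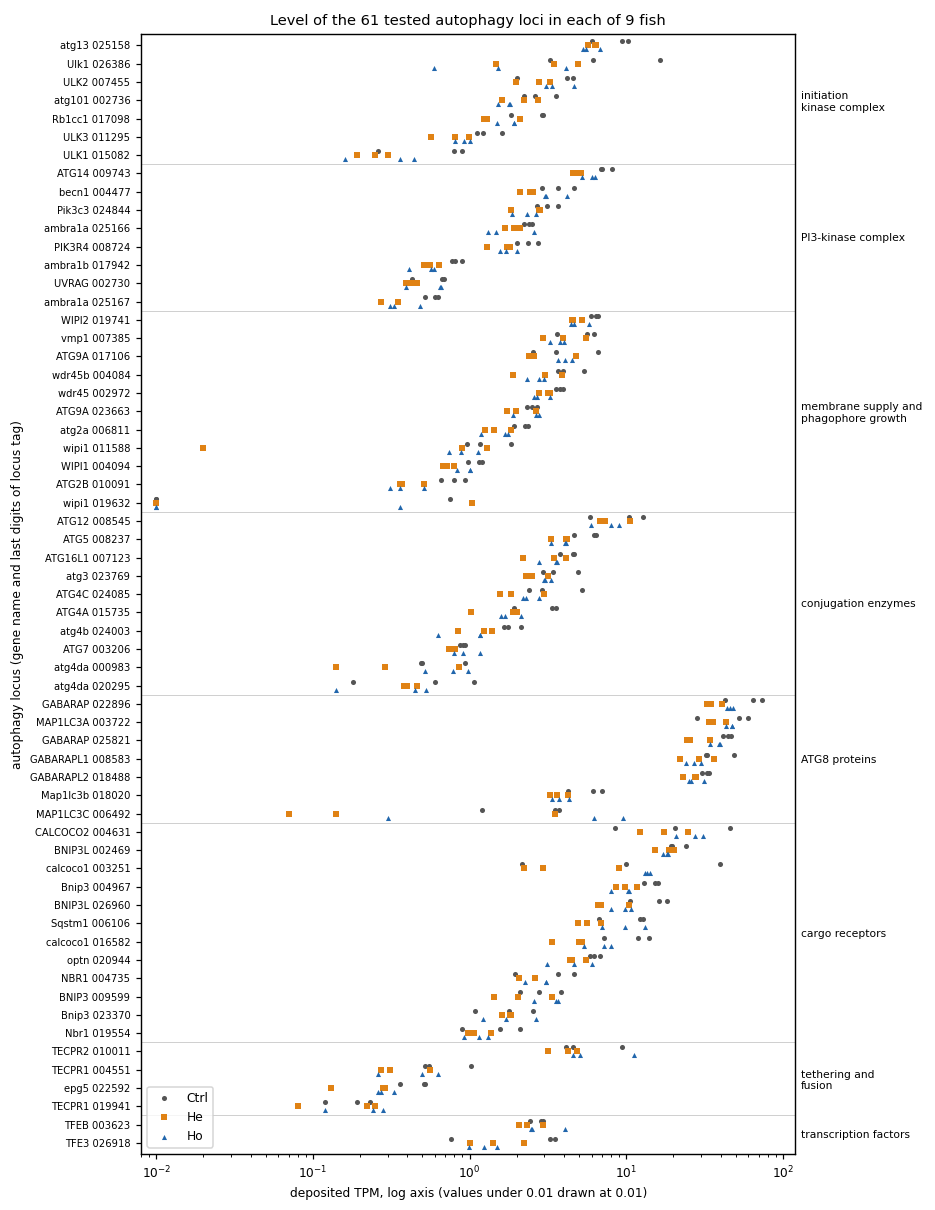
Deposited TPM (log axis) of each of the 61 tested autophagy loci in the 9 fish, ordered by role and by mean TPM, with circles for Ctrl, squares for He and triangles for Ho. Most rows span less than 10-fold over the 9 fish, while MAP1LC3C, wipi1 ABG768_011588 and ABG768_019632, Ulk1 ABG768_026386 and calcoco1 ABG768_003251 spread over more than 10-fold. In this TPM, 23 loci are lower in every He fish than in any Ctrl fish (all loci, 15.6%). For Ho fish this holds for 19 loci (all loci, 10.2%).

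The order at the top depended on how length was allowed for. GABARAP ABG768_022896 has a listed transcript of 369 bases and a mean of 47.5 TPM, but 11.5 when its CPM by library totals was divided by that length in kilobases, which placed it at rank 7 rather than 1. By that measure MAP1LC3A (ABG768_003722), an LC3 protein, led with 36.1, followed by the second GABARAP copy (ABG768_025821) with 27.0, GABARAPL1 (ABG768_008583) with 21.9 and GABARAPL2 (ABG768_018488) with 19.6. TFEB moved the other way, from rank 33 at 2.74 TPM to rank 12 with a CPM of 7.36 per kilobase. The ATG8 loci summed to a CPM of 122 per kilobase by this measure and the other 54 loci to 196. How the authors' lengths entered the TPM is not given in the sources used here, so the order of levels between genes is approximate.

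No autophagy locus passed the test between any pair of genotypes. At an adjusted p of 0.05, edgeR called 0 of 61 loci in He against Ctrl, in Ho against Ctrl and in Ho against He, where it also called 0% of all loci tested in each comparison. DESeq2 also called 0 autophagy loci in the 3 comparisons, out of 59, 61 and 60 that received an adjusted p, while it called 1.82%, 0.437% and 0.134% of all loci. At an unadjusted edgeR p under 0.05 stood 1 locus in each comparison, against 10.4%, 6.5% and 6.79% of all loci. With DESeq2 this was 3, 2 and 1, against 11%, 7% and 7.34%. The smallest adjusted p among the autophagy loci was 0.473 in He against Ctrl, 0.748 in Ho against Ctrl and 0.730 in Ho against He with edgeR, and 0.376, 0.573 and 0.598 with DESeq2. The comparisons with Ctrl share the same 3 Ctrl fish.

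Most estimated fold changes were small. Of the 61 loci, 52 in He against Ctrl, 53 in Ho against Ctrl and 53 in Ho against He had a log2 fold change within 0.5 of 0, against 69.4%, 73.8% and 72.7% of all loci. A change of 2-fold or more was estimated for 2, 2 and 3 loci, against 11.1%, 8.15% and 9.71% of all loci, and these were calcoco1 ABG768_003251, Ulk1 ABG768_026386, MAP1LC3C and the wipi1 copy ABG768_019632, which has 0 counts in 6 fish and whose fitted fold is therefore no guide. The precision allows a firmer statement for part of the list only. For 36, 30 and 36 loci the 95% interval of the fold change lay within 2-fold either way (all loci, 40.8%, 44.1% and 43.8%), and for the others the interval reached past 2-fold on at least 1 side, so that a change of that size was not excluded. The median half-width of the interval was 0.68 on the log2 scale in each comparison. These intervals hold for TMM scaling and do not carry the uncertainty of that choice. With library totals the median log2 fold change in He against Ctrl was -0.49 for the 61 loci and -0.41 for all loci. The median log2 fold change of the 61 loci was -0.12 in He against Ctrl, with 37 below 0 and 24 above, -0.15 in Ho against Ctrl, with 39 below and 22 above, and 0.03 in Ho against He, with 30 below and 31 above. Of all loci 50.7%, 51.5% and 48.6% lay below 0. Over all loci tested it was -0.01, -0.01 and 0.01. The medians below 0 depended on single fish, Ctrl 3 above all.

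**Figure D2:**
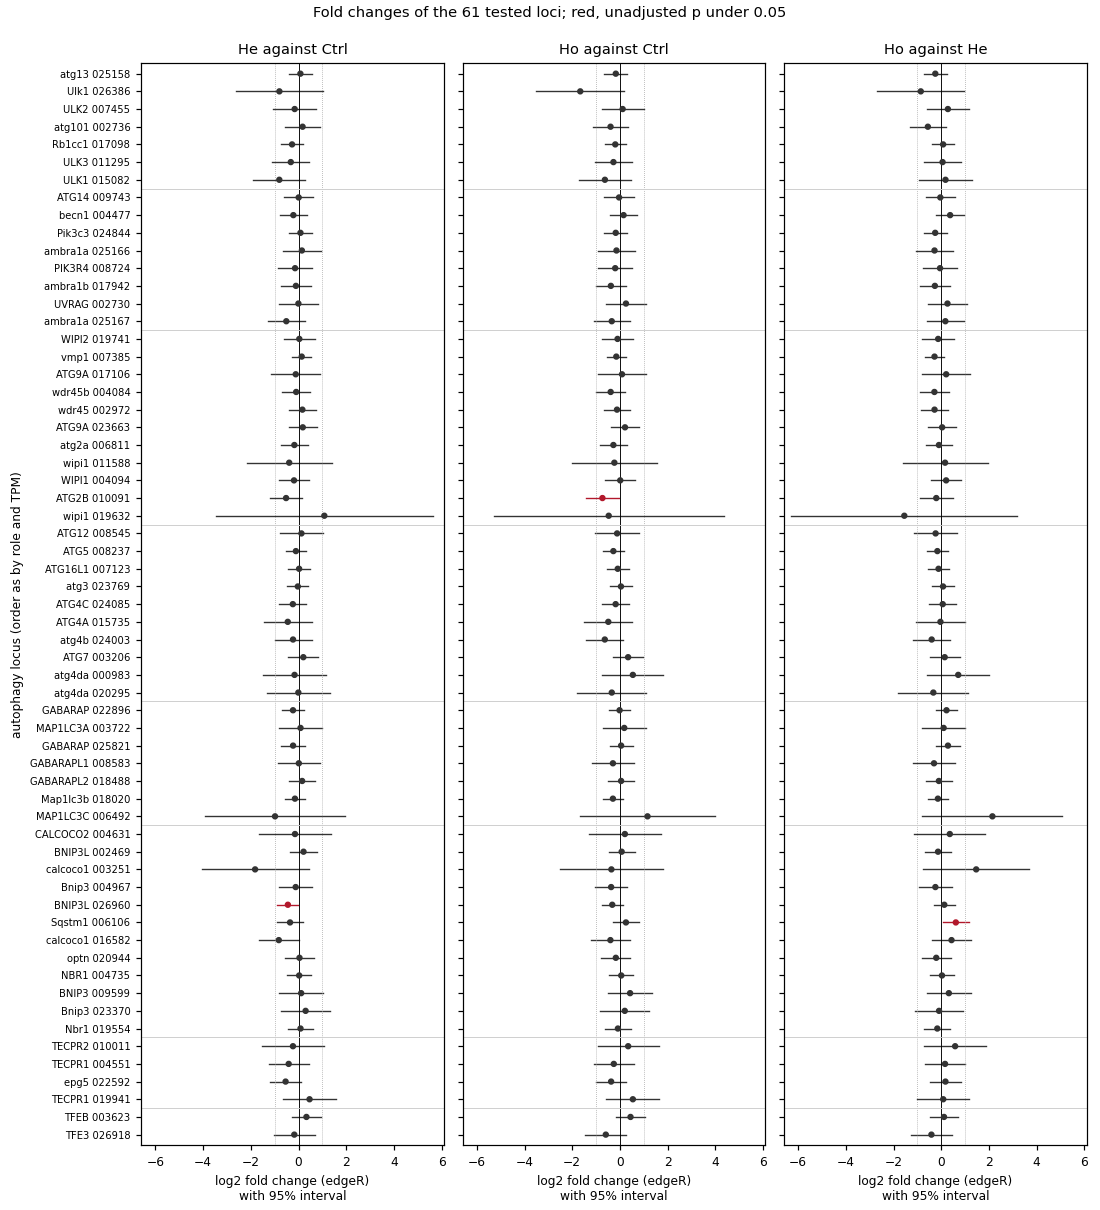
Log2 fold change (edgeR, horizontal axis) with its 95% interval for each of the 61 tested autophagy loci in the 3 comparisons, in the same order as the plot of TPM by fish. Red marks the 1 locus per comparison with an unadjusted p under 0.05, BNIP3L ABG768_026960, ATG2B and Sqstm1, and dotted lines mark 2-fold changes.

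Variation between fish of 1 genotype was modest for most of the machinery. The within-group coefficient of variation of the CPM had a median of 25.6% over the 61 loci and 29.2% over all loci. For 26 loci the highest of the 9 fish was less than 2-fold above the lowest, which is 42.6% against 28.9% of all loci. The mean CPM had a median of 7.69 over the 61 loci and 4.18 over all loci. The part of this level in that difference, and in the shares of small fold changes and narrow intervals, was not tested. The steadiest of the genes named here was vmp1 (ABG768_007385), an endoplasmic reticulum membrane protein needed for vesicle formation, with a coefficient of variation of 8.71%. GABARAP ABG768_022896 followed with 8.90%, Map1lc3b with 10.9% and BNIP3L ABG768_026960 with 11.1%. Only 5 loci spanned over 10-fold, namely MAP1LC3C ABG768_006492, calcoco1 ABG768_003251, Ulk1 ABG768_026386 and the wipi1 copies ABG768_011588 and ABG768_019632, which is 8.20% against 12.2% of all loci.

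Among the initiation genes, Ulk1 ABG768_026386 (annotated as ULK1a, chromosome 8, 16663560 to 16687767), the kinase that starts vesicle formation, varied most. Its CPM was 10.7, 47.6 and 30.2 in Ctrl, 29.7, 13.9 and 7.19 in He fish and 2.58, 6.38 and 19.1 in Ho. The groups overlapped, with the Ctrl 1 fish below the Ho 3 fish. In Ho against Ctrl the log2 fold change was -1.66 ± 0.82 (SE, n = 3 per group), with an adjusted p of 0.785 from edgeR. DESeq2 gave an adjusted p of 0.573 over all fish but 0.0277 without the Ho 3 fish, where it called 0.846% of all loci, so that its call turned on 1 fish. The other ULK1 locus (ABG768_015082, chromosome 21) stood at 0.47 to 1.69 CPM.

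The partners of the kinase were steadier. Atg13 (ABG768_025158), the adaptor that links the kinase to the membrane and the most abundant gene of this complex at 6.86 TPM, measured 14.9, 14.2 and 14.0 CPM in Ctrl, 19.3, 12.7 and 13.6 in He fish and 11.4, 11.5 and 15.2 in Ho. Its 95% intervals ran from -0.41 to 0.57 in He and from -0.66 to 0.32 in Ho against Ctrl on the log2 scale, inside a 2-fold change. Atg101 (ABG768_002736), the partner that stabilises ATG13, measured 1.87, 2.24 and 2.38 CPM in Ctrl and 1.45, 1.67 and 1.81 in Ho, so that all Ho fish were below all Ctrl fish, while He with 3.62, 1.98 and 1.72 overlapped both. The difference between Ho and Ctrl was -0.39 ± 0.33 on the log2 scale, with an adjusted p of 0.886 from edgeR.

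Within the lipid kinase complex, ATG14 (ABG768_009743), the subunit that sends the complex to the growing vesicle, was the most abundant at 6.02 TPM. It measured 12.0, 8.25 and 15.7 CPM in Ctrl, 15.3, 9.61 and 11.3 in He fish and 12.3, 9.77 and 13.0 in Ho, and its log2 fold changes were 0.01 ± 0.28 and -0.03 ± 0.28 against Ctrl. Becn1 (ABG768_004477, chromosome 12, 12241114 to 12370000) encodes beclin 1, the scaffold of the complex. It stood at 5.16, 7.31 and 9.80 CPM in Ctrl, 6.89, 5.42 and 6.81 in He fish and 7.35, 9.65 and 7.66 in Ho. All Ho fish were thus above all He fish, with Ctrl across the range of both. Between Ho and He the log2 fold change was 0.37 ± 0.26 with an adjusted p of 0.797 from edgeR. The other 6 loci of the complex, Pik3c3 (the catalytic lipid kinase), PIK3R4, UVRAG and the ambra1 loci, had log2 fold changes of -0.51 to 0.25 against Ctrl.

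The membrane-supply genes include ATG2B (ABG768_010091, chromosome 17, 27592993 to 27615337), which passes lipid to the growing membrane. Its CPM was 3.47, 4.35 and 6.31 in Ctrl, 3.62, 3.30 and 2.86 in He fish and 2.58, 2.07 and 3.83 in Ho. The Ho 3 fish lay above the Ctrl 1 fish, so the groups overlapped. In Ho against Ctrl the log2 fold change was -0.73 ± 0.31 (95% interval -1.42 to -0.04), with an unadjusted p of 0.0392 and an adjusted p of 0.748 from edgeR, and in He it was -0.52 ± 0.31. The vmp1 transcript was lower in every Ho fish (7.67, 6.89 and 6.58 CPM) than in any He fish (7.67, 9.69 and 8.40), although the closest pair was equal to 3 digits, with a log2 fold change of -0.29 ± 0.17 and an adjusted p of 0.773 from edgeR. WIPI2 (ABG768_019741), which reads the lipid mark and brings in the conjugation machinery, had the highest TPM of this role at 5.34. It measured 13.9, 11.6 and 21.6 CPM in Ctrl, 21.0, 12.1 and 15.0 in He fish and 13.0, 13.0 and 17.9 in Ho. By CPM per kilobase of listed transcript it stood at 4.83, below ATG9A ABG768_017106 (named for this comparison) at 6.48.

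Of the 3 WIPI1 loci, a pair named wipi1 showed counts that came and went between single fish. ABG768_011588 (chromosome 19) held 29 to 68 counts in 8 fish and 1 count in He 3. ABG768_019632 (chromosome 3) held 28 counts in Ctrl 2, 45 in He 3, 17 in Ho 1 and 0 in the other 6 fish. Added together they gave 1.78, 4.30 and 3.27 CPM in Ctrl, 3.06, 3.00 and 2.93 in He fish and 3.11, 2.70 and 1.95 in Ho, a 2.42-fold range over the 9 fish. The listed transcripts are 2723 and 2720 bases long. These copies were singled out after their values were seen, and their sequences were not compared. How reads were divided between copies is not given in the sources used here, so the level of each copy is uncertain. Its part in these counts was not tested.

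The conjugation enzymes were led by ATG12 (ABG768_008545), the ubiquitin-like protein joined to ATG5, with 8.52 TPM and 1.29, 2.06 and 4.31 CPM in Ctrl, 2.77, 2.95 and 2.48 in He fish and 1.82, 2.58 and 2.55 in Ho. Its listed transcript is 578 bases long. By CPM per kilobase of listed transcript it stood at 4.31, below ATG16L1 ABG768_007123 (named for this comparison) at 6.69. Atg4b (ABG768_024003, chromosome 6, 19662225 to 19671436), the protease that trims ATG8 proteins, measured 1.91, 2.20 and 3.05 CPM in Ctrl, 2.63, 1.98 and 1.46 in He fish and 1.82, 1.72 and 1.01 in Ho. All 3 Ho fish were below all 3 Ctrl fish, the nearest pair being 1.82 and 1.91. The log2 fold change was -0.63 ± 0.35 with an adjusted p of 0.813 from edgeR. Of the 10 tested enzymes, 7 had a log2 fold change below 0 in He and 7 in Ho against Ctrl, with medians of -0.07 and -0.15.

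The ATG8 proteins stud the vesicle membrane and bind the cargo receptors. MAP1LC3A stood at 31.1, 51.4 and 98.3 CPM in Ctrl, 87.5, 48.6 and 55.6 in He fish and 69.4, 61.3 and 74.1 in Ho. The widest spread was among the Ctrl fish, and the log2 fold changes against Ctrl were 0.08 ± 0.40 in He and 0.18 ± 0.40 in Ho. Map1lc3b (ABG768_018020, chromosome 24, 11277714 to 11285663) stood at 15.3, 15.5 and 16.0 CPM in Ctrl, 16.8, 13.2 and 12.2 in He fish and 12.5, 13.8 and 11.9 in Ho. All Ho fish were below all Ctrl fish here, by a log2 fold change of -0.29 ± 0.19 with an adjusted p of 0.838 from edgeR and an interval of -0.71 to 0.12.

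Both GABARAP copies placed every Ho fish above every He fish. ABG768_025821 (chromosome 7, 49789719 to 49794575) measured 27.8, 25.7 and 38.8 CPM in Ctrl, 29.3, 26.6 and 22.9 in He fish and 33.4, 31.7 and 30.6 in Ho. ABG768_022896 (chromosome 5) measured 4.89, 3.85 and 4.38 CPM in Ctrl, 3.98, 3.53 and 3.69 in He fish and 4.61, 4.02 and 4.37 in Ho. Their log2 fold changes in Ho against He were 0.28 ± 0.22 and 0.22 ± 0.20, with adjusted p of 0.820 and 0.843 from edgeR. GABARAPL1 measured 17.6, 15.5 and 39.1 CPM in Ctrl, 35.7, 19.3 and 17.9 in He fish and 17.4, 18.5 and 22.9 in Ho. GABARAPL2 measured 16.0, 13.8 and 21.8 in Ctrl, 24.1, 16.6 and 16.6 in He fish and 20.3, 16.0 and 17.0 in Ho. For both the groups overlapped, and the log2 fold changes against Ctrl lay between -0.29 and 0.15.

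MAP1LC3C (ABG768_006492, chromosome 14, 16324086 to 16325758), a less common LC3 protein, was present or nearly absent from fish to fish. Its counts were 49, 14 and 42 in Ctrl, 1, 58 and 2 in He fish and 141, 4 and 78 in Ho. Low and high fish occurred in both mutant groups, and the Ctrl fish lay between. The log2 fold change in Ho against He was 2.14 ± 1.29 with an adjusted p of 0.773 from edgeR, and its 95% interval ran from -0.79 to 5.08. Without the He 2 fish DESeq2 gave an adjusted p of 0.0130 and called 0.908% of all loci.

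Among the cargo receptors was the only locus of the 61 whose scaled CPM separated all 6 mutants from all 3 Ctrl fish. BNIP3L ABG768_026960 (annotated as BNIP3-like a, chromosome 8, 34313999 to 34325175), a mitochondrial membrane protein that marks mitochondria for removal, measured 23.4, 23.4 and 23.1 CPM in Ctrl, 17.7, 18.6 and 15.0 in He fish and 20.9, 14.9 and 20.2 in Ho. The Ctrl fish were nearly alike and every mutant was lower. Over all loci 1.92% were lower in all 6 mutants and 1.76% higher, so that 1 of 61 is near the background. The separation depended on the scaling. In deposited TPM this locus overlapped, with 10.6 in Ctrl 3 and 10.7 in Ho 1, while 13 other loci were lower in all 6 mutants (0 higher), among them ATG14, WIPI2, epg5, ATG2B and atg4b, against 5.3% of all loci lower and 0.346% higher. By library totals 11 loci were lower and 0 higher, against 3.42% and 0.481%. The log2 fold change was -0.45 ± 0.20 (95% interval -0.89 to -0.00) in He, with an unadjusted p of 0.0482 and an adjusted p of 0.473 from edgeR, and -0.32 ± 0.20 in Ho, with an adjusted p of 0.829. The paralogue ABG768_002469 (BNIP3-like b, chromosome 10) was 65.0, 54.0 and 86.5 CPM in Ctrl, 80.4, 65.0 and 92.3 in He fish and 75.7, 68.0 and 72.3 in Ho, with overlapping groups and log2 fold changes of 0.21 ± 0.25 and 0.07 ± 0.25. It is given here, outside the rule for named genes, for comparison with its paralogue.

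Sqstm1 (ABG768_006106, chromosome 14, 1062419 to 1069776) encodes p62, the receptor that carries ubiquitin-tagged protein into the vesicle. It measured 15.7, 14.7 and 13.0 CPM in Ctrl, 11.7, 8.94 and 13.4 in He fish and 17.1, 21.9 and 12.8 in Ho. Ho 3 lay below He 3, so the mutant groups overlapped, and Ctrl lay between their means. Between Ho and He the log2 fold change was 0.61 ± 0.25 (95% interval 0.06 to 1.16), with an unadjusted p of 0.0338 and an adjusted p of 0.730 from edgeR. Against Ctrl it was -0.35 ± 0.25 in He and 0.25 ± 0.24 in Ho.

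Calcoco1 and CALCOCO2 had the widest spread between fish among the receptors, with coefficients of variation of 113% and 63.3%. Calcoco1 ABG768_003251 (chromosome 11, 2651522 to 2665078) is named after CALCOCO1, which carries endoplasmic reticulum into vesicles in mammals. This locus measured 3.56, 14.7 and 98.9 CPM in Ctrl, 9.02, 18.4 and 5.54 in He fish and 31.4, 27.9 and 31.8 in Ho. The Ctrl fish spanned the whole range while the Ho fish were close together and above every He fish. The log2 fold change was -1.82 ± 0.99 in He against Ctrl and 1.46 ± 0.98 in Ho against He, with adjusted p of 0.560 and 0.791 from edgeR. The value in He against Ctrl turned to 0.30 without Ctrl 3. The copy ABG768_016582 (chromosome 22) measured 20.4, 35.5 and 51.8 CPM in Ctrl, 28.2, 17.9 and 14.6 in He fish and 31.4, 20.2 and 30.0 in Ho, with a log2 fold change of -0.83 ± 0.37 and an adjusted p of 0.482 in He against Ctrl. CALCOCO2 (ABG768_004631), the most abundant receptor at 23.2 TPM, measured 11.4, 24.3 and 87.0 CPM in Ctrl, 58.3, 29.2 and 23.2 in He fish and 49.5, 36.2 and 55.7 in Ho. In all 3 loci Ctrl 3 was the highest and Ctrl 1 the lowest of the Ctrl fish.

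**Figure D3:**
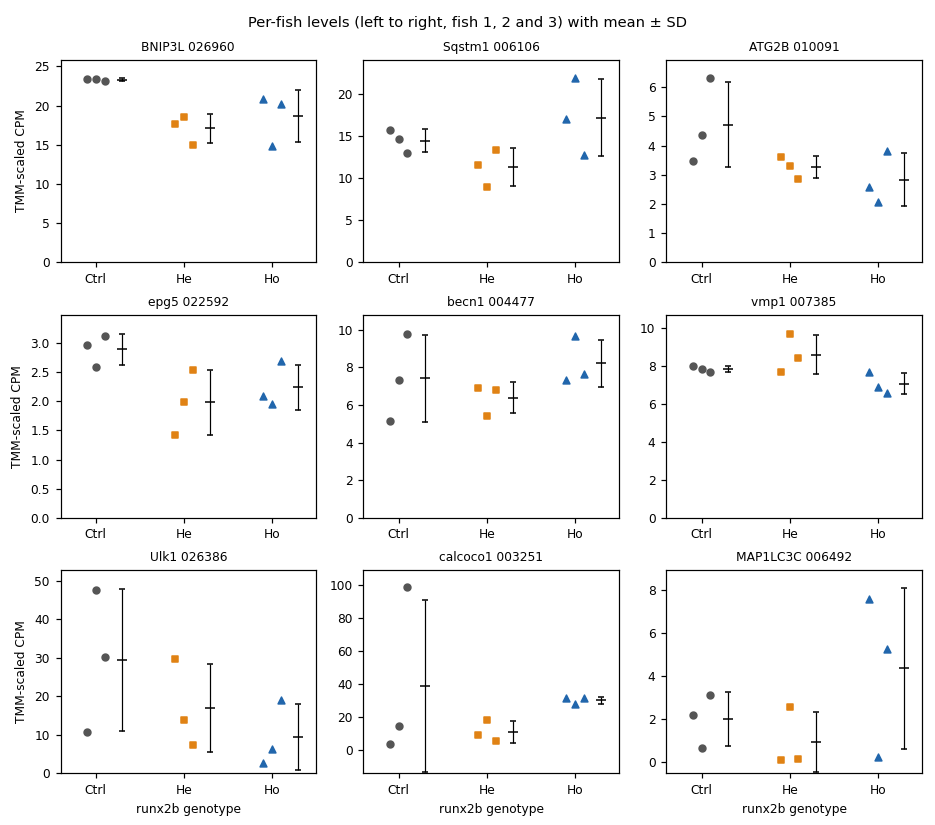
CPM scaled by TMM (vertical axis, linear) of 9 autophagy loci in each fish, grouped by genotype, with the group mean and SD (n = 3) to the right of the points. BNIP3L ABG768_026960 has the 3 Ctrl fish above all mutants, whereas Ulk1, calcoco1 and MAP1LC3C spread as widely within a group as between groups.

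The tethers included some of the rarest transcripts. Epg5 (ABG768_022592, chromosome 5, 22795979 to 22827073), which docks the vesicle to the lysosome, measured 2.98, 2.60 and 3.12 CPM in Ctrl, 1.42, 1.98 and 2.55 in He fish and 2.09, 1.95 and 2.69 in Ho. All He fish were below all Ctrl fish, the nearest pair being 2.55 and 2.60, and Ho 3 overlapped Ctrl. The log2 fold change in He was -0.54 ± 0.28 with an adjusted p of 0.538 from edgeR. TECPR2 (ABG768_010011), the most abundant of this role at 5.69 TPM, measured 18.6, 18.3 and 63.4 CPM in Ctrl, 35.2, 17.5 and 32.5 in He fish and 30.2, 26.3 and 70.7 in Ho, with 1 high fish in Ctrl and 1 in Ho.

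TFEB (ABG768_003623, chromosome 11, 18450649 to 18486609), the transcription factor that switches on lysosome and autophagy genes in mammals, measured 10.9, 9.68 and 14.0 CPM in Ctrl, 14.9, 11.4 and 17.3 in He fish and 21.1, 12.8 and 13.2 in Ho. The highest values were in mutant fish, and both mutant groups overlapped Ctrl 3. The log2 fold changes against Ctrl were 0.33 ± 0.27 in He and 0.44 ± 0.27 in Ho, with adjusted p of 0.693 and 0.825 from edgeR. The sign in He depended on the scaling. With library totals the values were -0.06 in He and 0.25 in Ho, where the medians of all loci were -0.41 and -0.24.

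Counted over the list, the groups did not overlap for 3 of 61 loci in He against Ctrl, all lower in He (BNIP3L ABG768_026960, epg5 and ambra1a ABG768_025167, the last named after its values were seen), against 14.6% of all loci (6.28% higher and 8.32% lower). In Ho against Ctrl this held for 4 loci, all lower in Ho (BNIP3L ABG768_026960, Map1lc3b, atg4b and atg101), against 11.2% (5.92% higher and 5.32% lower). In Ho against He it held for 6 loci, 4 higher (both GABARAP copies, becn1 and calcoco1 ABG768_003251) and 2 lower (vmp1 and ambra1b, the last named after its values were seen), against 12.3% (6.03% higher and 6.23% lower). These counts depended on the scaling. In deposited TPM, 23 loci were lower in every He fish than in any Ctrl fish and 0 higher, and 19 were lower in every Ho fish and 0 higher, against 15.6% of all loci lower and 0.861% higher in He, and 10.2% lower and 2.10% higher in Ho. With CPM by library totals the counts were 19 and 15 lower and 0 higher, against 12.6% and 6.99% of all loci lower. In Ho against He, 9 loci were higher and 0 lower in deposited TPM, against 7.67% and 2.07% of all loci, and 8 were higher and 0 lower by library totals, against 7.84% and 1.86%. With library totals, the median log2 fold change of all loci against Ctrl was itself -0.41 in He and -0.24 in Ho. With TMM scaling it was -0.01 in both. That of the autophagy loci was -0.49 and -0.34 with library totals, and -0.12 and -0.15 with TMM scaling.

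The summed levels show the same dependence. The TPM of the ATG8 proteins added to 223, 237 and 230 in Ctrl, 168, 175 and 142 in He fish and 203, 186 and 191 in Ho, with no overlap between the 3 groups. The lipid kinase complex added to 20.8, 22.0 and 20.1 TPM in Ctrl, 14.0, 14.9 and 14.5 in He fish and 16.0, 16.0 and 17.7 in Ho, again with no overlap. No rule set in advance named these roles, and the separation was not particular to them. The TPM of all 61 loci added to 442 to 515 in Ctrl, 297 to 365 in He and 380 to 406 in Ho. How often such sums separate over all loci was not counted. In CPM scaled by TMM the ATG8 sums were 115, 126 and 221 in Ctrl, 197, 130 and 129 in He fish and 165, 145 and 166 in Ho, with overlap throughout. The lipid kinase sums in this CPM overlapped too. They were 41.8, 38.9 and 63.3 in Ctrl, 54.6, 39.2 and 46.1 in He fish and 42.0, 41.2 and 51.8 in Ho. For all 61 loci this CPM added to 563, 622 and 1060 in Ctrl, 804, 602 and 615 in He fish and 714, 637 and 783 in Ho, with overlap. TPM is a share of all transcripts in a library, and the 10 most abundant loci took 40.4%, 40.1% and 51.0% of the counts in Ctrl, 52.4%, 47.4% and 44.6% in He fish and 44.1%, 44.4% and 48.3% in Ho. The TMM factors, which are meant to allow for such shares, were 1.30, 1.40 and 0.836 in Ctrl, 0.708, 1.08 and 0.867 in He fish and 0.991, 1.10 and 0.907 in Ho. Whether these shares account for the difference between the TPM and CPM sums was not tested.

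One pattern in the list concerned a single fish. Ctrl 3 held the highest scaled CPM of all 9 fish for 28 of the 61 autophagy loci (45.9%), and for 12.5% of all loci tested. It was the lowest fish for 2 of the 61 (3.28%, against 11.3%). No other fish was highest for more than 8 of the loci. The median deviation of the autophagy loci from their mean over the 9 fish was 0.39 on the log2 scale in Ctrl 3 and between -0.15 and 0.16 in the others, while over all loci it was between -0.01 and 0.03 in every fish. Among the 3 Ctrl fish alone, Ctrl 3 was the highest for 43 of 61 loci (70.5%, against 38.7% of all loci). The excess covered most roles. Ctrl 3 stood above the mean of the other Ctrl fish by a median log2 difference of 0.64 for membrane supply, 0.58 for the cargo receptors, 0.58 for the lipid kinase complex, 0.55 for the ATG8 proteins and 0.32 for the conjugation enzymes. It was smaller in the initiation complex (0.21) and the tethers (0.15), and the 2 transcription factors were lower (-0.48). In deposited TPM, Ctrl 3 was the highest fish for 10 loci (16.4%, against 4.28% of all loci), and Ctrl 2 for 27 (44.3%, against 41.7%). This pattern was chosen after the values were seen and is given as a description.

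**Figure D4:**
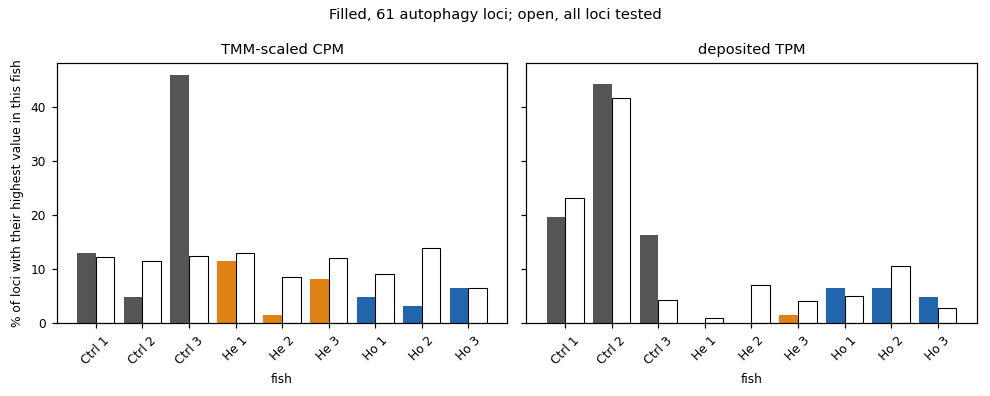
Percentage of loci (vertical axis) that have their highest value in each of the 9 fish, for the 61 autophagy loci (filled bars) and all 14755 loci tested (open bars), in CPM scaled by TMM and in deposited TPM. Ctrl 3 holds 45.9% of the autophagy maxima in the scaled CPM against 12.5% of all loci, and 16.4% against 4.28% in TPM.

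Without Ctrl 3 the median log2 fold change of the autophagy loci was 0.09 in He and 0.02 in Ho against Ctrl, in place of -0.12 and -0.15. In that fit edgeR called 0 autophagy loci, and the share of all loci called was not counted. Single He fish mattered too, since the median in He against Ctrl was -0.02 without He 2 and 0.00 without He 3. DESeq2 without Ctrl 3 called 1, ATG9A ABG768_017106 (annotated as ATG9B, named because of this call), higher in Ho with an adjusted p of 0.0244, where it called 3.40% of all loci. That locus, of the family that carries lipid to the growing vesicle, measured 8.22, 10.3 and 32.1 CPM in Ctrl, 14.4, 19.3 and 12.7 in He fish and 19.6, 16.9 and 16.9 in Ho. Ctrl 3 also differed from the other Ctrl fish in its tissue markers. Its fast muscle markers summed to 326469 CPM against 178512 and 185291 in Ctrl 1 and Ctrl 2, its skin markers to 329 against 1615 and 750 CPM, and its red blood cell markers (9 of 12 loci tested, hbb2 ABG768_004577 at 0 in all fish) to 43.5 against 1011 and 542 CPM. The part of these markers in the result was not tested. Their sums depend on the scaling. The TMM factor was 0.836 in Ctrl 3 against 1.30 and 1.40 in Ctrl 1 and Ctrl 2, and a lower factor raises the scaled sums. Marker sums by library totals are not given here, so the size of the fast muscle difference is uncertain.

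Where a gene had several copies, their shares of the summed TPM were steady in some families and not in others. Of 13 such families, 11 had at least 2 tested copies. The NBR1 copies kept nearly fixed proportions, with 65.7% to 73.0% for ABG768_004735 over the 9 fish, and the GABARAP copies stayed between 50.7% and 62.5% of the TPM for ABG768_022896. By CPM per kilobase of listed transcript, the same copy held 25.3% to 34.5% and was the minor one in every fish. The calcoco1 shares varied more, with ABG768_003251 at 23.0% to 77.1% in Ctrl, 36.1% to 64.4% in He and 63.7% to 70.8% in Ho. BNIP3L ABG768_026960 held 35.6% to 48.2% of its pair in Ctrl, 25.5% to 35.8% in He and 30.1% to 37.1% in Ho. For TECPR1 the major copy ABG768_004551 held 74.3% to 81.6% in Ctrl and 64.1% to 72.4% in Ho, ranges that did not overlap, and 51.9% to 79.5% in He. The minor TECPR1 copy ABG768_019941 had only 5 to 15 counts a fish, so its share moves with a few reads. How often copy shares fail to overlap between groups was not counted over all loci. These families were singled out after their values were seen. The sequences of the copies were not compared, and shares can depend on how reads were divided between copies.

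**Figure D5:**
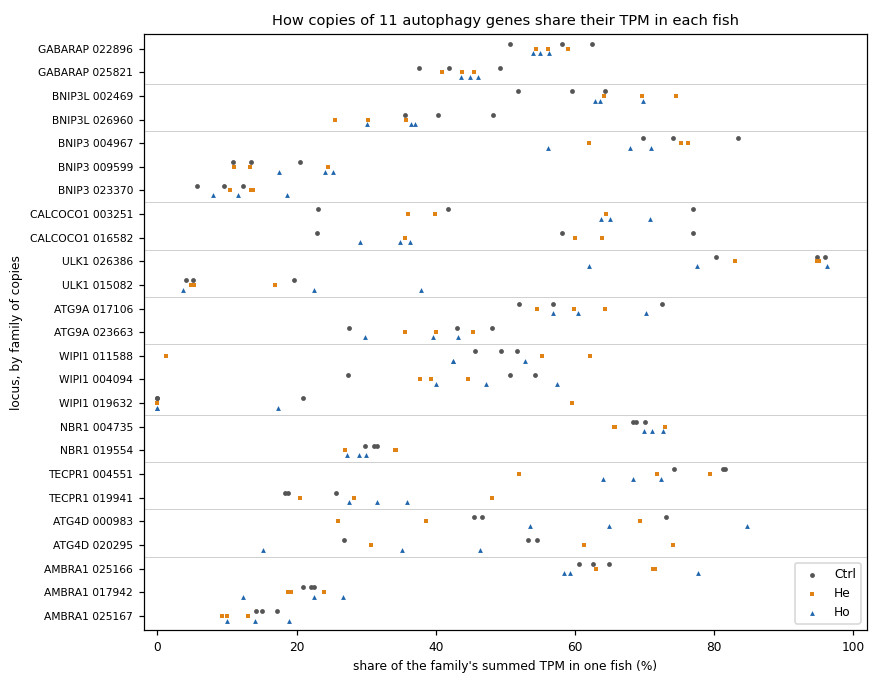
Share of a family's summed TPM (horizontal axis, %) held by each copy in each of the 9 fish, for the 11 autophagy genes with at least 2 tested copies, with circles for Ctrl, squares for He and triangles for Ho. NBR1 and GABARAP copies keep their proportions, while CALCOCO1, WIPI1 and ATG4D copies trade places between fish.

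Genes around the machinery were tested as 3 further lists. Of 44 loci for upstream nutrient and energy control (mTOR, AMPK and FOXO genes among them), 38 were tested. For fusion with the lysosome 27 of 28 were tested, and for mitophagy and other selective cargo routes 20 of 21. Neither edgeR nor DESeq2 called a locus of these lists in any comparison. Of all loci, edgeR called 0% in each comparison. DESeq2 called 1.82% in He against Ctrl, 0.437% in Ho against Ctrl and 0.134% in Ho against He. At an unadjusted edgeR p under 0.05, which 10.4% of all loci reached in He against Ctrl, 6.5% in Ho against Ctrl and 6.79% in Ho against He, the upstream list had 2 loci higher and 0 lower in He, and 1 higher and 0 lower in Ho, against Ctrl. The fusion list had 0 higher and 2 lower in He and 0 in Ho, and the mitophagy list 2 higher and 1 lower in He and 2 higher and 1 lower in Ho. In Ho against He, the upstream list had 1 higher and 1 lower, the fusion list 2 higher and 0 lower and the mitophagy list 1 higher and 0 lower. The median log2 fold changes of the 3 lists against Ctrl were -0.06, -0.14 and 0.02 in He and 0.10, -0.20 and 0.04 in Ho.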

How the data were processed

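RNA-seq of 9 trunk muscle samples, 1 per fish, was analysed. According to the study's methods, the authors filtered paired reads, aligned them to the C. alburnus genome (ASM4018292v1) and quantified expression. The aligner and the counting tool are not given in the sources used here. The authors deposited an estimated count per locus, unscaled, and TPM, scaled by the authors to transcript length and an equal library sum. FPKM were not used. The proteome was not analysed here.

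Estimated counts were rounded, filtered with filterByExpr, scaled by TMM and fitted with edgeR 4.0.16 (robust glmQLFit, glmQLFTest, all 9 libraries, genotype as the only term). P-values were adjusted by Benjamini and Hochberg over 14755 loci, and a locus was called under 0.05. The study's DEG rule (adjusted p under 0.01, absolute log2 fold change of at least 1) was counted too. DESeq2 1.42.0 and limma 3.58.1 (trended, on log2-transformed TPM with a pseudocount of 1 or 0.1) were alternatives, as were other scalings and filters, a replicate block and leaving out each library. The scripts were tested on simulated data. The SE of a log2 fold change was taken from the F statistic. P-values measure the spread between single fish.

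Named genes were members called by a test, the 6 smallest p per comparison, the highest TPM per role, the 5 highest TPM overall and all tested ATG8 loci. Others are marked where they appear. The members and lists were chosen with earlier results of these data known.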

Additional observations from a re-analysis of the deposited data

How the results depend on the processing

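The count of called autophagy loci was 0 under edgeR with each scaling, filter and threshold tried, under DESeq2, under limma on TPM, within the 6 libraries compared, and with edgeR without any single library. In the main fit edgeR called 0% of all loci in each comparison, and DESeq2 called 1.82%, 0.437% and 0.134%. By the study's DEG rule edgeR also called 0% of all loci in each comparison. The paper reports DEGs by that rule in every comparison, so this fit recovered none of them. The share of all loci called was not counted for the other edgeR scalings, filters and fits, nor for limma. There the count of 0 stands alone. With DESeq2 and 1 library left out, an alternative chosen after seeing the data, the count ran from 0 to 1 in Ho against Ctrl (1 without Ctrl 3 and 1 without Ho 3, with 3.40% and 0.846% of all loci called) and from 0 to 1 in Ho against He (1 without He 2, with 0.908% of all loci called), and was 0 in He against Ctrl. The median log2 fold change in He against Ctrl moved from -0.12 to -0.49 with library totals, to -0.34 with limma on log2(TPM + 1) and to -0.47 on log2(TPM + 0.1), where all loci moved to -0.41, -0.28 and -0.43. In Ho against Ctrl it moved from -0.15 to -0.40 on log2(TPM + 0.1), where all loci stood at -0.29. Without 1 library it ran from -0.20 to 0.094 in He against Ctrl, from -0.23 to 0.02 in Ho against Ctrl and from -0.09 to 0.10 in Ho against He, and the highest values against Ctrl came without Ctrl 3.

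Loci whose groups do not overlap numbered 19 with library totals, 6 with at least 10 counts in every library and 23 in deposited TPM in He against Ctrl, and 15, 7 and 19 in Ho against Ctrl. With at least 10 counts, all loci stood at 13.6% and 11.2%. Without 1 library they ran from 3 to 18, from 4 to 18 and from 6 to 15 in the 3 comparisons, where all loci ran from 14.6% to 36.9%, from 11.2% to 32.7% and from 12.3% to 26.8%, in part because 2 fish against 3 overlap less often. Replicate numbers did not pair the fish, as same-numbered fish had correlations of -0.26 to 0.26. With the replicate block the medians were -0.03, -0.15 and 0.00, and 0 autophagy loci were called. Among the 26 named loci, all 1398 alternative values stayed uncalled. This says little about stability, since the smallest adjusted p of an autophagy locus in the main edgeR fit was 0.473. The DESeq2 fits without 1 library are not among these values, and there Ulk1 ABG768_026386 and MAP1LC3C ABG768_006492 were called. Of the 1398 values, 117 had another sign, none for the 3 with an unadjusted p under 0.05. The depth limits loci such as TECPR1 ABG768_019941, with 5 to 15 counts a fish.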
